A study of Rattus with 12 samples.

Results

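Transcripts of 31 genes of cholesterol and fatty acid synthesis were followed in 12 rat co-cultures kept with or without fentanyl. The genes were chosen by name, as sterol and lipid synthesis genes that the count table holds. The list was drawn up with earlier results of these data known. The table lists 17337 genes, and it holds 30 of the 31 under the symbol used here and 1, Scd, under its older symbol Scd1. They fall into 7 genes of the mevalonate pathway, 11 of sterol synthesis from squalene on, 4 that regulate the pathway or carry sterol, and 9 of fatty acid synthesis. All 31 had enough counts to be tested, with at least 58 counts in every culture.

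Cells make cholesterol from acetyl-CoA. The mevalonate pathway builds isoprenoid units and joins them to farnesyl diphosphate, and the enzymes that follow make squalene, close it to the first sterol and trim that sterol to cholesterol. When membrane sterol is scarce, the SREBP transcription factors leave the endoplasmic reticulum and switch on most of these genes together, along with the genes that make and desaturate fatty acids. The brain makes its own cholesterol, since lipoproteins of the blood do not cross into it, and astrocytes and myelin-forming oligodendrocytes make most of it in the mature brain.

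The cultures were primary Sprague Dawley rat cortical neurons, astrocytes and oligodendrocyte precursor cells (OPCs) grown together. The design puts the start of the exposure at 24 to 26 days in vitro. There were 4 untreated cultures (A, G, M and P), 4 given 0.01 μM fentanyl (B, H, N and Q, the low dose) and 4 given 10 μM (C, I, O and R, the high dose), each for 4 days. Fentanyl is a synthetic opioid that acts on the mu-opioid receptor, and untreated cultures were given medium without it. RNA of a whole culture was sequenced, so fewer cells of a type and less RNA per cell cannot be told apart.

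Total counts ranged from 12059872 to 24813893 per culture. Cultures whose letters follow each other, here called the letter sets ABC, GHI, MNO and PQR and holding 1 culture of each dose, resembled each other, and neither the labels nor the methods say what the letters stand for. Values within these letter sets are therefore given beside the pooled ones. Untreated culture G stood apart from the other 11. Its 8 neuron markers summed to 533 CPM (counts scaled to library size, with TMM), against 3080.3 to 6839 CPM in the others. Its fibroblast markers summed to 1672 CPM, below low dose culture N at 2857 CPM and above the rest. The study calls the cultures of a dose biological replicates. Whether they came from separate preparations of cells is not given in the sources used here, so the p-values speak only to these cultures. Those of edgeR rest on the spread that the fitted model leaves. They treat the cultures as independent, though cultures of a letter set resembled each other.

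None of the 31 genes was called at either dose. With edgeR's quasi-likelihood test and Benjamini-Hochberg adjustment over all 12271 genes tested, the smallest adjusted p among the 31 was 1.0 for low dose vs. untreated, for high dose vs. untreated and for the doses against each other. To be called, a gene had to pass both an adjusted p of 0.05 and a log2 fold change of 0.5 up or down. In each of the 3 comparisons 0% of all genes passed. The study, with RUVseq and edgeR at these thresholds, reported differentially expressed genes in all 3 comparisons. The model used here recovered none of those, so its lack of calls is not particular to the 31 genes. DESeq2 called 3 of all genes between high dose and untreated cultures and 1 between the doses, and again 0 of the 31. What the synthesis genes did share was a small displacement to lower values. In high dose vs. untreated, 29 of the 31 had a log2 fold change below 0, where 49.2% of all genes did, and their median was -0.195 against a median of 0.00311 over all genes. Without culture G the median of the 31 was -0.128.

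In low dose vs. untreated, 26 of the 31 had a log2 fold change below 0, where 46.6% of all genes did. Their median was -0.146, beside 0.0134 over all genes, and it was -0.0722 without culture G. Single genes ranged from -0.35 (Fads1) to 0.31 (Ebp). The value of Fads1 rested on G: it was -0.13 without that culture and 0.01 with the letter sets as a block and G left out. In high dose vs. low dose, 25 lay below 0, where 52.4% of all genes did, with a median of -0.08 beside -0.01 over all genes. The low dose and high dose comparisons share the same 4 untreated cultures, so their directions are not separate observations, and the genes of this pathway are not independent of each other. Single genes ranged from -0.69 (Fads1) to 0.02 (Mvk) in high dose vs. untreated and from -0.34 (Fads1) to 0.15 (Acaca) between the doses.

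An unadjusted p under 0.05 was reached by 0 of the 31 in low dose vs. untreated, where 0.742% of all genes did, and by 0 in high dose vs. low dose, where 1.17% did (edgeR). Against the untreated cultures, 1 of the 31 reached it at the high dose, Sc5d, where 1.19% of all genes reached it. These shares are near those of all genes in this model, which does not hold the letter sets. The shares of all genes are themselves far below the 0.05 that evenly spread p-values would give. The p-values of this model are thus conservative, and counts of 0 or 1 do not show an absence of change. With the sets as a block, given further on, 7 of the 31 reached it in high dose vs. untreated, beside 3.05% of all genes.

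**Figure D1:**
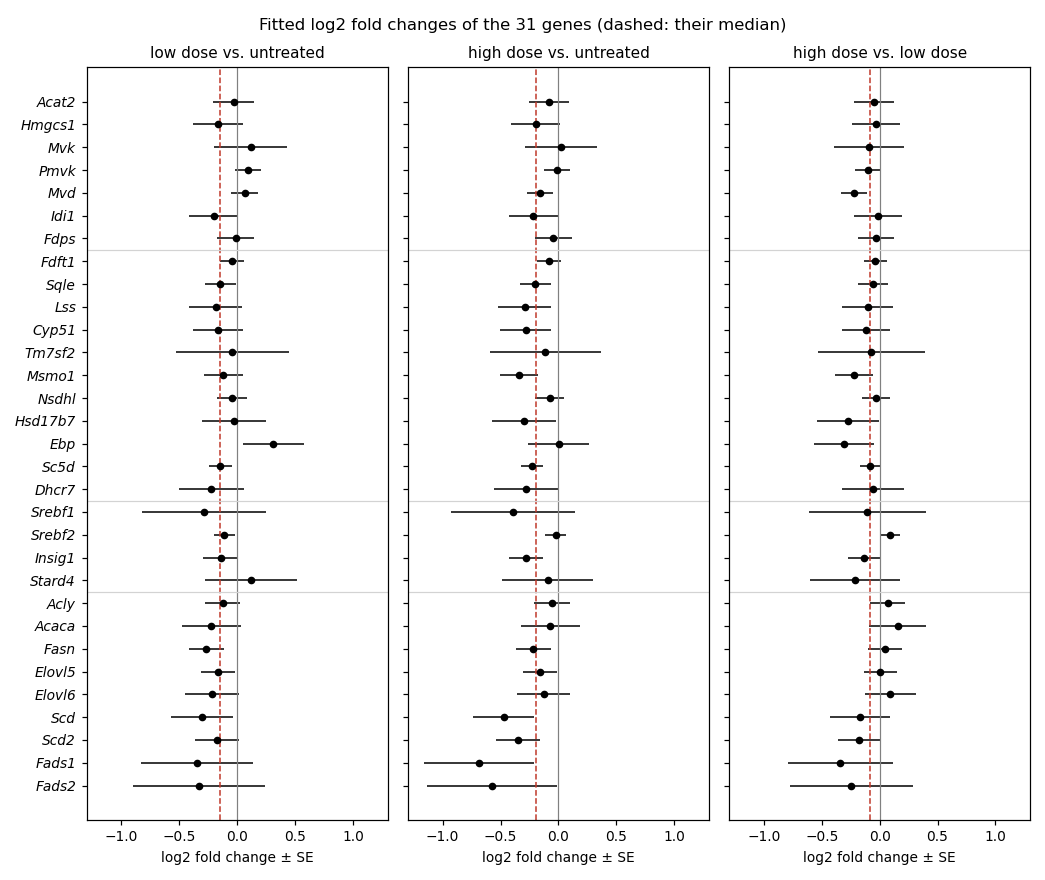
Fitted log2 fold change (x axis, bars ± SE of the edgeR fit over 12 cultures) of each of the 31 genes in the 3 comparisons, grouped by role, with a dashed line at their median. Left of 0 lie 26, 29 and 25 of the 31 points in the panels from left to right.

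In the comparisons with the untreated cultures, the mevalonate pathway had the medians nearest 0 of the 4 roles. The median log2 fold change of its 7 genes was -0.01 at the low dose and -0.08 at the high dose, and -0.05 between the doses, and 0 of 7 were called in each (edgeR). Hmgcs1 encodes the synthase that makes HMG-CoA, the starting compound of the pathway. Its level was 429, 328, 279 and 335 CPM in untreated cultures A, G, M and P, 434, 277, 238 and 322 CPM in low dose cultures B, H, N and Q, and 399, 298, 270.3 and 271 CPM in high dose cultures C, I, O and R. The 3 groups overlapped, and within each dose the culture of the set ABC was the highest. The means were 343 ± 62.7 (SD, n = 4), 318 ± 84.8 and 309.5 ± 60.8 CPM.

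Idi1, the isomerase that interconverts the isoprenoid building blocks, had the same arrangement of cultures. It was at 98.3, 67.0, 57.5 and 68.2 CPM in untreated, 88.1, 65.0, 49.4 and 61.5 CPM in low dose and 81.0, 66.5, 57.0 and 55.6 CPM in high dose cultures, in the order of letters above. The high dose culture lay below the untreated one in each of the 4 letter sets for both genes, by 0.01 to 0.29 on the log2(CPM + 1) scale for Idi1 and by 0.04 to 0.30 for Hmgcs1. The fitted log2 fold change in high dose vs. untreated was -0.22 (SE 0.21) for Idi1 and -0.195 (SE 0.21) for Hmgcs1, each about the size of its standard error.

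Mvd, the decarboxylase that yields the first isoprenoid unit, was at 36.4, 25.4, 26.7 and 32.3 CPM in untreated, 32.1, 35.2, 32.7 and 29.8 CPM in low dose and 27.5, 29.0, 29.2 and 25.4 CPM in high dose cultures. Every high dose culture lay below every low dose culture. This was the 1 gene of the 31 whose doses did not overlap in high dose vs. low dose, where 0.522% of all genes lay wholly below (p = 0.0286 in an exact two-sided permutation test, which with 4 against 4 cannot go lower, and adjusted p = 1.0 over all genes). The high dose was below the low dose by 0.22 in ABC, 0.27 in GHI, 0.16 in MNO and 0.22 in PQR, and the fitted log2 fold change was -0.22 (SE 0.11, unadjusted p = 0.0741, edgeR). Against the untreated cultures, by contrast, Mvd at the high dose lay lower in ABC and PQR and higher in GHI and MNO.

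The other 4 genes of the pathway overlapped between doses. Acat2, the thiolase that joins acetyl-CoA units, ranged from 26.5 to 47.4 CPM over the 12 cultures, and Fdps, which makes farnesyl diphosphate, from 76.9 to 153 CPM, with the highest value of both in culture G. The kinases Mvk and Pmvk ranged from 14.7 to 32.0 CPM and from 29.2 to 38.7 CPM. Mvk differed mainly by letter set, with 14.7 to 16.5 CPM in ABC and 21.1 CPM or more in the other 9 cultures. Pmvk was higher at the low dose than in the untreated culture of each letter set, by 0.02 to 0.20 on the log2(CPM + 1) scale, and no other gene of the 31 was higher in all 4 sets in that comparison, in which 4.06% of all genes were.

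Sterol synthesis from squalene on held 8 of the 14 genes that lay lower in every letter set in high dose vs. untreated. Of its 11 genes, these 8 were lower at the high dose than in the untreated culture of all 4 sets, counted by sign alone. For Tm7sf2 there was almost no difference in ABC. The median log2 fold change of all 11 in that comparison was -0.23. In low dose vs. untreated 3 of 11 were lower in every set (median -0.12), and in high dose vs. low dose also 3 of 11 (median -0.08). In each comparison 0 of 11 were called (edgeR).

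Squalene epoxidase (Sqle) adds the oxygen that makes the closing of the ring system possible. It was at 112, 199, 109 and 124 CPM in untreated, 104, 117, 97.1 and 123 CPM in low dose and 96.2, 113, 106 and 114 CPM in high dose cultures. Culture G was the highest of the 12, and the remaining untreated cultures overlapped with both doses. Its fitted log2 fold change was -0.15 (SE 0.13) in low dose vs. untreated and -0.20 (SE 0.13) in high dose vs. untreated, each with an adjusted p of 1.0 (edgeR), and without G these were -0.05 and -0.08.

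Cyp51, the demethylase that acts on lanosterol, was at 120.1, 208, 116 and 175 CPM in untreated, 108, 125, 112 and 174 CPM in low dose and 100.2, 117, 119 and 145 CPM in high dose cultures. G was again the highest, followed by P and Q of the set PQR. At the high dose Cyp51 lay below the untreated culture in ABC, GHI and PQR, by 0.26, 0.82 and 0.27, and above it by 0.03 in MNO. The fitted log2 fold change was -0.28 (SE 0.22), and -0.13 without G.

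Msmo1 removes methyl groups from early sterols. Its level was 119, 208, 102 and 128 CPM in untreated, 111, 115, 95.8 and 139 CPM in low dose and 99.0, 97.9, 93.6 and 109 CPM in high dose cultures. The high dose cultures spanned a narrow range (99.8 ± 6.33 CPM, SD, n = 4), below 3 of the 4 untreated cultures and overlapping with the fourth. Within the sets the high dose was lower than untreated by 0.27, 1.08, 0.13 and 0.23 (ABC, GHI, MNO and PQR). The fitted log2 fold change was -0.34 (SE 0.17, unadjusted p = 0.0680, edgeR) against untreated and -0.22 (SE 0.16, unadjusted p = 0.201) against the low dose. Against untreated it was -0.20 without G.

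Sc5d, a sterol desaturase of the late pathway, had the smallest unadjusted p of the 31 in high dose vs. untreated. It was at 98.1, 91.8, 85.5 and 96.3 CPM in untreated, 92.9, 78.1, 77.4 and 93.1 CPM in low dose and 80.1, 80.7, 73.9 and 87.8 CPM in high dose cultures. A single high dose culture, R, lay above the lowest untreated culture, M. The high dose was lower by 0.29, 0.18, 0.21 and 0.13 in the 4 sets, with a fitted log2 fold change of -0.23 (SE 0.096, unadjusted p = 0.0393, adjusted p = 1.0, edgeR), and the exact two-sided permutation p was 0.0571. In low dose vs. untreated its log2 fold change was -0.15 (SE 0.096, unadjusted p = 0.160, edgeR). The count of 1 gene with an unadjusted p under 0.05 fell to 0 when A, G, P, I or O was left out. It was 3 without M and 2 without N, Q or C, and the shares of all genes in these fits are not given here.

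Of the remaining 7 sterol genes, Fdft1 (squalene synthase), Lss (which closes squalene to lanosterol), Tm7sf2 and Hsd17b7 (sterol reductases) and Nsdhl (a sterol dehydrogenase) were lower at the high dose than in the untreated culture of every set. These differences went down to 0.02 for Nsdhl and 0.03 for Fdft1 in PQR, and Tm7sf2 was at 15.4 CPM in both A and C. Dhcr7, the reductase of the last step to cholesterol, was lower in 3 sets and higher by 0.12 in MNO. Ebp, a sterol isomerase, ranged from 4.20 to 10.6 CPM, with the 3 lowest values in A, B and C. Its log2 fold change was 0.31 (SE 0.27) in low dose vs. untreated and -0.31 (SE 0.26, unadjusted p = 0.256, edgeR) in high dose vs. low dose, where it lay lower in every set.

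The 4 regulators and carriers had a median log2 fold change of -0.185 in high dose vs. untreated, and 0 of them lay lower in all 4 letter sets. None of the 4 was called in any comparison (edgeR). Srebf2, which encodes the SREBP that drives most of the sterol genes, was at 149, 173, 148 and 153 CPM in untreated, 147, 138, 133 and 152 CPM in low dose and 156, 148, 137 and 165 CPM in high dose cultures. The 11 values other than that of G spanned a factor of 1.24. At the low dose Srebf2 was below the untreated culture in every set, by 0.01 to 0.33, with a fitted log2 fold change of -0.11 (SE 0.092, unadjusted p = 0.255, edgeR). From the low to the high dose it was higher in every set, by 0.04 to 0.12, and it was the 1 gene of the 31 higher in all 4 sets there, where 11.7% of all genes were. Its log2 fold change in high dose vs. untreated was -0.02 (SE 0.092).

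Srebf1, whose SREBP acts more on fatty acid genes, varied far more. It was at 48.8, 225, 58.1 and 128 CPM in untreated, 46.5, 53.4, 63.0 and 138 CPM in low dose and 56.7, 49.4, 49.2 and 124 CPM in high dose cultures. Culture G was 4.38 times the mean of H and I, and P, Q and R were each the highest of their dose when G is set aside. The fitted log2 fold change in high dose vs. untreated, -0.39, was smaller than its standard error of 0.53, and it was 0.00233 without G, 0.145 without P and -0.932 without A.

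Insig1, which retains the SREBP complex in the endoplasmic reticulum when sterol is plentiful and is itself a target of SREBP, was at 173, 188, 122 and 175 CPM in untreated, 149.9, 129, 134 and 176 CPM in low dose and 131, 138, 129 and 139.6 CPM in high dose cultures. Untreated A, G and P lay above all 4 high dose cultures, and untreated M lay below them. The high dose was lower by 0.40, 0.44 and 0.32 in ABC, GHI and PQR and higher by 0.08 in MNO, with a fitted log2 fold change of -0.28 (SE 0.15, unadjusted p = 0.0894, edgeR). The spread between the high dose cultures (SD 5.11 CPM) was smaller than between the untreated ones (SD 28.8 CPM).

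Stard4, a carrier of sterol between membranes, was at 24.5, 15.5, 22.4 and 10.8 CPM in untreated, 28.5, 19.8, 23.1 and 8.53 CPM in low dose and 19.9, 20.6, 18.6 and 10.0 CPM in high dose cultures. The set PQR held the lowest value at each dose. The log2 fold change was 0.12 (SE 0.40) in low dose vs. untreated and -0.09 (SE 0.40) in high dose vs. untreated. Without G these were -0.07 and -0.25, the first with its direction turned.

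**Figure D2:**
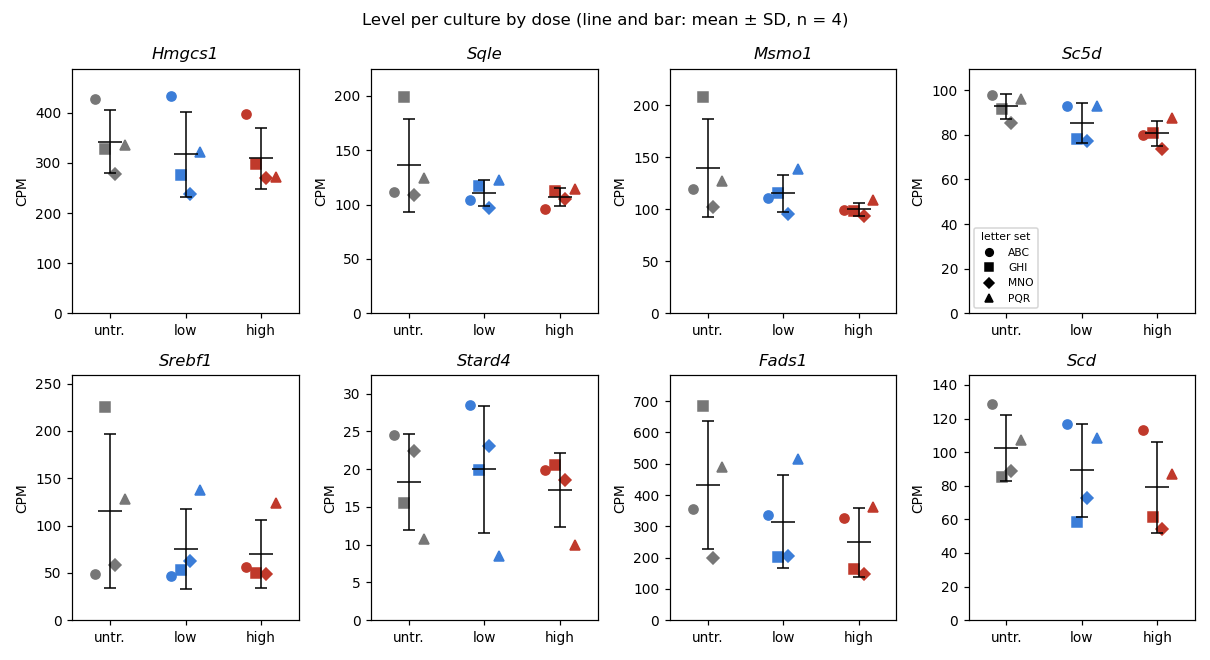
Level in CPM (y axis from 0) of 8 of the genes by dose (x axis), 1 point per culture with its shape by letter set, and the mean ± SD of 4 cultures. The mean of each of these 8 is lowest at the high dose with overlapping points, and culture G (grey square) is the highest untreated point for Sqle, Msmo1, Srebf1 and Fads1.

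Among the 9 genes of fatty acid synthesis, the median log2 fold change was -0.22 in low dose vs. untreated and also -0.22 in high dose vs. untreated, with all 9 below 0 in both. Between the doses it was 0.01, with 4 genes below 0 and 5 above. In each comparison 0 of 9 were called (edgeR). In low dose vs. untreated, Fasn, Acly and Elovl6 were lower in every set, and in high dose vs. untreated Elovl5, Scd, Fads1 and Fads2 were.

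Fasn, the fatty acid synthase that makes palmitate, was at 243, 264, 260.4 and 353 CPM in untreated, 237, 208, 239.6 and 269 CPM in low dose and 261, 204, 229.8 and 289 CPM in high dose cultures. It had the smallest unadjusted p of the 31 in low dose vs. untreated, with a log2 fold change of -0.27 (SE 0.15, unadjusted p = 0.110, adjusted p = 1.0, edgeR). The low dose was lower by 0.04, 0.35, 0.12 and 0.39 in the 4 sets. At the high dose the log2 fold change from untreated was -0.22 (SE 0.15), with the set ABC higher by 0.10.

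Desaturases had the 3 largest fold changes of the 31 in high dose vs. untreated. Scd, which puts the first double bond into saturated fatty acids, was at 129, 85.4, 88.7 and 107 CPM in untreated, 117, 58.4, 72.9 and 108 CPM in low dose and 113, 61.5, 54.3 and 86.8 CPM in high dose cultures. The high dose culture was the lower one in every set, by 0.18, 0.47, 0.70 and 0.30, while the groups overlapped. The fitted log2 fold change was -0.47 (SE 0.27). Scd2, its paralog, ranged from 2365 to 4491 CPM, with its lowest value in high dose culture O. How reads that fit both paralogs were counted is not given in the sources used here, so the split between them is uncertain.

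Fads1 and Fads2, the desaturases of polyunsaturated fatty acids, were picked for a full description after their values had been seen. Fads1 was at 356, 684, 198 and 489 CPM in untreated, 335, 203, 205 and 516 CPM in low dose and 326, 162, 148 and 362 CPM in high dose cultures. Its high dose level was lower by 0.13, 2.07, 0.42 and 0.43 in the 4 sets, with a fitted log2 fold change of -0.69 (SE 0.48), and -0.415 without G. Fads2 was at 236, 205, 85.7 and 182 CPM in untreated, 245, 89.3, 72.5 and 197 CPM in low dose and 221, 69.5, 55.8 and 160.3 CPM in high dose cultures. Its high dose level was lower by 0.10, 1.55, 0.61 and 0.18, with a fitted log2 fold change of -0.57 (SE 0.57). Without G the fold change was -0.419 (SE 0.59). In the other model, with the letter sets as a block and G left out, it was -0.30 (SE 0.091). Both genes also lay lower at high than at low dose in every set, by 0.04 to 0.51 for Fads1 and by 0.15 to 0.37 for Fads2.

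The first enzymes of the branch differed mainly by set. Acly, which splits citrate to give cytosolic acetyl-CoA, was at 284 to 301 CPM in ABC and 206 to 237 CPM in the other 9 cultures. Acaca, the carboxylase that commits acetyl-CoA to fatty acids, ranged from 44.9 to 94.8 CPM, and the elongases Elovl5 and Elovl6 from 77.9 to 117 CPM and from 47.3 to 94.1 CPM. For Acaca and Elovl6 the highest 3 cultures were P, Q and R.

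Which letter set a culture belonged to went with far more of the variation of these genes than its dose. With G left out, the letter sets held a median of 85.6% of the variance of a gene between cultures, where the median over all genes was 75.3%, and the doses held 7.79%, where the median over all genes was 7.95%. For 30 of the 31 the sets held over 50%, and the exception was Mvd with 15.5%. The genes did not move together between sets. PQR had the highest mean for 19 of them, ABC for 9, GHI for 2 and MNO for 1, and the highest set lay above every culture of the other sets for 18 of the 31, where 35.8% of all genes had such a set. Fads2 spanned a factor of 4.39 over the 11 cultures, Tm7sf2 3.51, Fads1 3.49 and Stard4 3.34, against 1.20 for Fdft1.

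**Figure D3:**
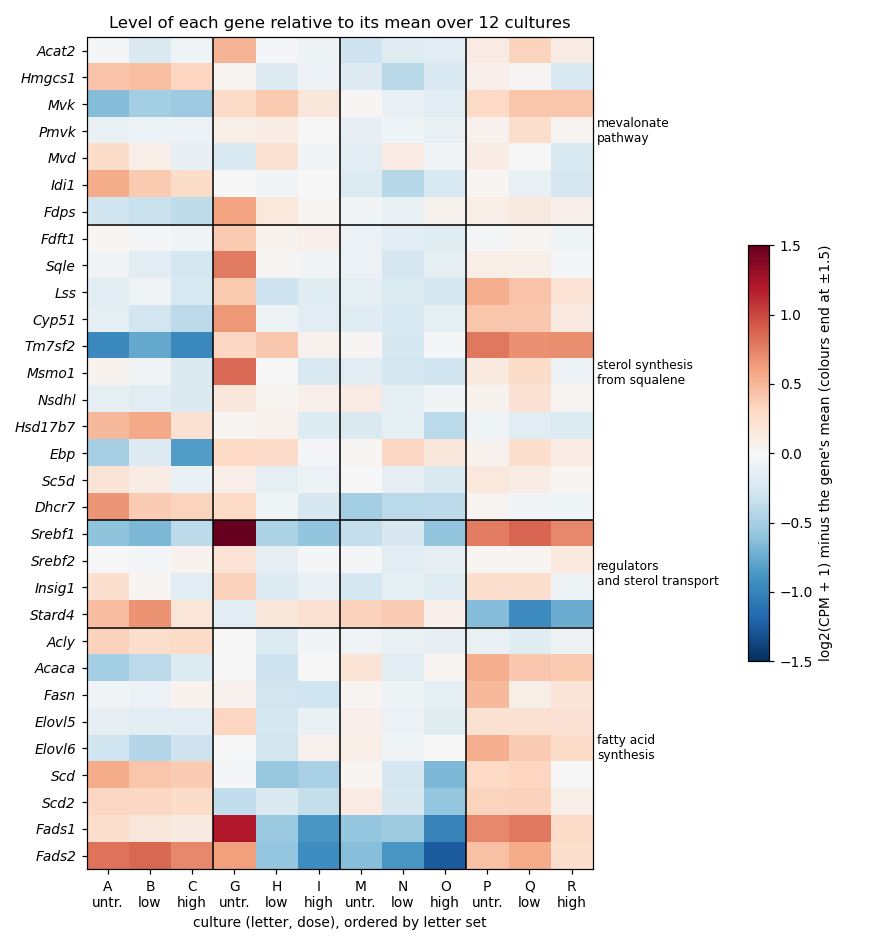
Level of each gene as log2(CPM + 1) minus its mean over 12 cultures (colour, ends at ±1.5), with cultures on the x axis ordered by letter set and genes on the y axis by role. Blocks of 3 neighbouring cultures share a colour for most genes, and G is darkest red for Srebf1 and Fads1.

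Within the letter sets, the displacement at the high dose was present in each set. The median difference of the 31 genes between the high dose and the untreated culture was -0.08 in ABC, -0.32 in GHI, -0.115 in MNO and -0.13 in PQR on the log2(CPM + 1) scale, with 25, 26, 23 and 27 of the 31 lower. Over all genes the medians lay between -0.0111 and 0.00236. Lower in all 4 sets were 14 of the 31 (45.2%), where 5.18% of all genes were, and 0 were higher in all 4, where 5.23% were. These 14 were Hmgcs1, Idi1, Fdft1, Sqle, Lss, Tm7sf2, Msmo1, Nsdhl, Hsd17b7, Sc5d, Elovl5, Scd, Fads1 and Fads2. The count took the sign alone, for these genes and for all genes. It thus includes Tm7sf2 with a difference of -9.7e-05 in ABC, and Idi1 with -0.01 in GHI and in MNO. In the 3 sets without GHI, 17 were lower in each, where 14.5% of all genes were.

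At the low dose, the median difference from the untreated culture of the set was -0.04 in ABC, -0.33 in GHI, -0.09 in MNO and -0.01 in PQR, with 20, 24, 21 and 16 of the 31 lower. Lower in all 4 sets were 8 of the 31 (25.8%), where 5.25% of all genes were. From the low to the high dose the medians were -0.05, -0.05, -0.04 and -0.14 with 23, 17, 19 and 26 lower, and 8 of the 31 were lower in all 4 sets, where 11% of all genes were. Those 8 were Mvk, Mvd, Msmo1, Hsd17b7, Ebp, Scd2, Fads1 and Fads2. These sets are not a stated pairing.

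**Figure D4:**
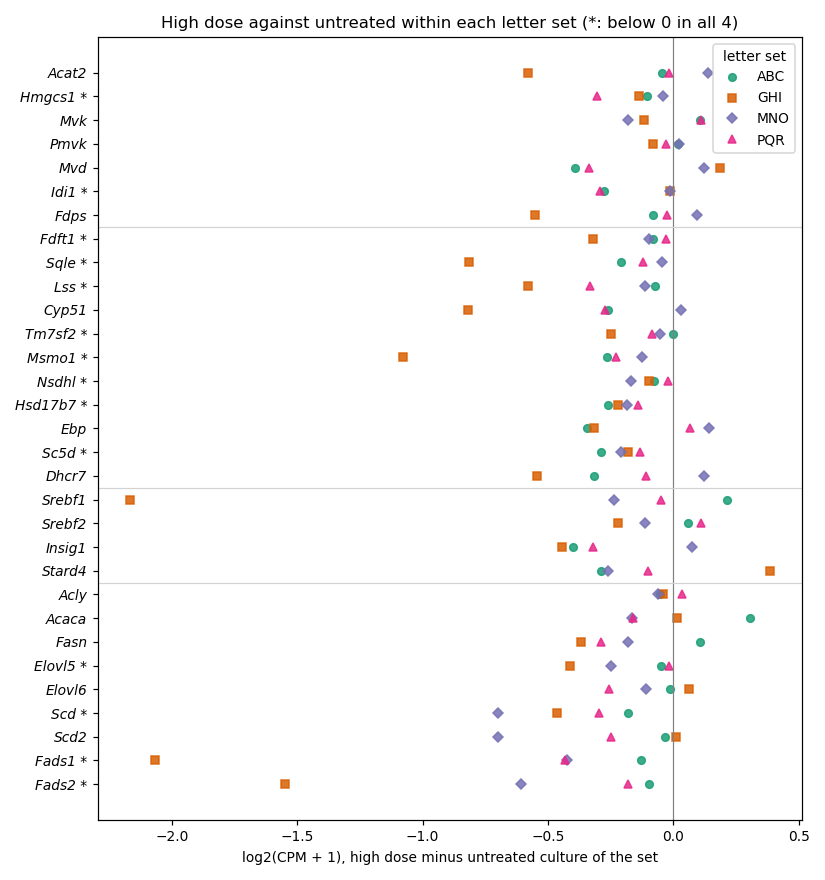
Difference between the high dose and the untreated culture of each letter set (x axis, log2(CPM + 1)) for each of the 31 genes, with 1 marker per set and a star where all 4 lie below 0. The squares of GHI reach furthest left, to -2.17 for Srebf1, and 14 genes carry a star.

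With the letter sets as a block in the model in place of the estimated factor, 7 of the 31 had an unadjusted p under 0.05 in high dose vs. untreated, where 3.05% of all genes did (edgeR). They were Scd (log2 fold change -0.42, SE 0.11), Sc5d, Fads2, Msmo1, Cyp51, Fads1 and Insig1, all lower, each with an adjusted p of 0.882. With culture G also left out, 8 of the 31 reached it, where 9.43% of all genes did. Fads1 then had a log2 fold change of -0.32 (SE 0.087), Scd of -0.35 (SE 0.11), Fads2 of -0.30 (SE 0.091), Msmo1 of -0.215 (SE 0.068) and Sc5d of -0.19 (SE 0.063), with adjusted p of 0.269, 0.337, 0.330, 0.353 and 0.379 (edgeR). This model called 15 of all genes, and 0 of the 31.

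Culture G, whose neuron markers were low, was above the other 11 cultures for 11 of the 31 genes and below them for 1, Mvd, where 27.5% and 28.5% of all genes were. The 11 included Sqle, Cyp51, Msmo1, Fdps, Srebf1 and Fads1. Astrocyte markers (8 of 8 detected in every culture) summed to 3549, 7947.5, 4398 and 10210.0 CPM in untreated, 4638, 4311, 3242 and 11791 CPM in low dose and 4701, 2924, 2147 and 8284 CPM in high dose cultures. Their median log2 fold change in high dose vs. untreated was -0.54, and 0 of 8 were called (edgeR). In the set ABC the astrocyte sum was higher at the high dose than in the untreated culture. There the median difference of the 31 synthesis genes was -0.08, with 25 lower. In GHI, MNO and PQR the sum was lower at the high dose. The medians there were -0.32, -0.115 and -0.13, with 26, 23 and 27 lower. The part of the astrocyte sum in the synthesis genes' values was not tested.

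The 8 oligodendrocyte markers summed to 2959.8 to 25787 CPM over the 12 cultures, with 2959.8 to 4498 CPM in ABC, and their median log2 fold change was 0.05 in high dose vs. untreated. The 6 OPC markers summed to 267 to 1283 CPM (median 0.07). The 8 neuron markers had a median of 0.54, with culture G, low in them, among the untreated. Their sum at the high dose was lower than untreated in ABC (6137 against 6839 CPM) and MNO (4069 against 4133 CPM). It was higher in PQR (3665 against 3122 CPM) and in GHI (4540.5 against 533 CPM in G). Microglia, which were not seeded, were seen by 6 markers that summed to 17.4 to 21.5 CPM in PQR and 172 to 651 CPM elsewhere (median 0.96), with Cx3cr1 at 0 in at least 1 culture. Fibroblast markers summed to 54.8 to 2857 CPM, with the highest sums in N and G, and endothelial markers to 0.413 to 45.1 CPM, with Cldn5 and Cdh5 at 0 in at least 1 culture. In these lists 0 markers were called in each comparison (edgeR), and their part in the values of the synthesis genes was not tested.

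**Figure D5:**
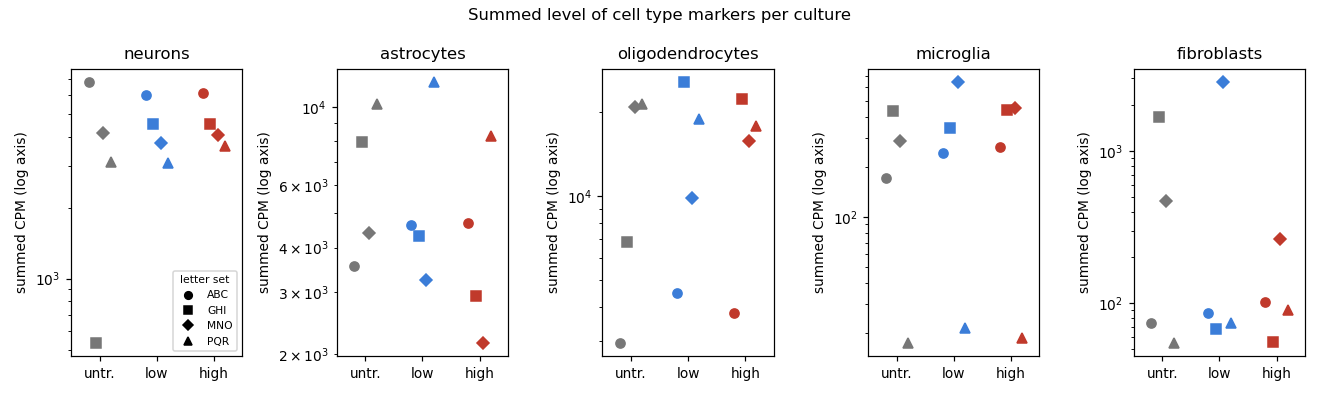
Summed CPM of the markers of 5 cell types (y axes, log scale, separate for each panel) by dose (x axis), 1 point per culture with its shape by letter set. Culture G (grey square) is the lowest point for neurons at 533 CPM, and astrocyte sums run from 2147 to 11791 CPM.

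Neighbouring pathways were read from lists of named genes. Genes of fatty acid oxidation (9 of 9 tested) had a median log2 fold change from untreated of -0.12 at the low dose and -0.265 at the high dose, and of -0.08 between the doses. The 12 genes of sterol sensing and uptake, among them the escort protein and the proteases that release SREBP, had medians of -0.10, -0.03 and 0.01 in the same order. The 17 genes of acetyl-CoA and fatty acid handling had -0.04, -0.10 and -0.06, the 7 of the isoprenoid branch 0.00, -0.06 and -0.04, the 6 of sterol esterification and oxysterols -0.12, -0.07 and 0.02, and the 10 of lysosomal and intracellular sterol transport -0.02, 0.01 and 0.00. In each list 0 genes were called in each comparison (edgeR). For most of the 9 oxidation genes, culture G held the highest level of all cultures. In ABC, most of those 9 were higher at the high dose than untreated. Lower in all 4 letter sets were 1 of the 9 in low dose vs. untreated, where 5.25% of all genes were. In high dose vs. untreated 2 were, beside 5.18% of all genes, and in high dose vs. low dose 3 were, beside 11%. Medians of these lists without G were not computed.

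The list of sterol efflux genes and LXR targets (8 genes), which also holds the LXR receptors themselves and enzymes of lipoprotein receptor turnover and phospholipid remodelling, had medians of 0.07, 0.21 and 0.00. Of all genes in these lists, 1 had an unadjusted p under 0.05 in any comparison, which is near the share of all genes. This was Abca1, the transporter that loads cholesterol onto lipoproteins, in high dose vs. low dose, where 1.17% of all genes had one. It was at 84.9, 206, 132 and 136 CPM in untreated, 77.0, 71.0, 159 and 107 CPM in low dose and 121, 148, 172 and 152 CPM in high dose cultures, and was above the low dose by 0.64, 1.05, 0.12 and 0.50 in the 4 sets. Its log2 fold change was 0.53 (SE 0.22, unadjusted p = 0.0356, adjusted p = 1.0, edgeR), and against the untreated cultures the high dose lay lower in GHI and higher in the other 3 sets.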

How the data were processed

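Complex cultures were sequenced from poly(A)-selected RNA. Reads were aligned by the authors with STAR (rat genome rn6) and assigned to genes with featureCounts, and the deposited values are these counts per gene and culture, without normalization. Counts were analysed in R 4.3.3 with edgeR 4.0.16, with TMM scaling and filterByExpr. The study names RUVseq without its procedure, so 1 RUVs factor was estimated with the formula rewritten in R, and 12 cultures were fitted in one quasi-likelihood model with doses and factor. Thresholds were those of the study. Standard errors came from the quasi-likelihood statistics. Single genes were also compared by exact two-sided permutation tests of log2(CPM + 1) over 70 arrangements. The script was tested on simulated counts. No pair of libraries agreed within sampling noise (smallest reduced chi-square 7.31). The common dispersion was 0.106.

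The members, lists and tests were chosen with earlier results of these data known. Genes named with fold changes were 10 listed members and the 3 with the smallest unadjusted p per comparison, and Fads1, Fads2, Mvk and Acaca were added as extremes after their values were seen. Levels per culture were given for the 10, and those of Mvd, Msmo1, Sc5d, Fads1, Fads2 and Abca1 were added after their values were seen. Symbols were joined with a RefSeq table of another build, so no coordinates are given, and no gene lengths were used, so levels are not compared between genes. Alternatives were no factor, 2 RUVs factors, the letter sets as a block with and without culture G, the likelihood ratio test, DESeq2 1.42.0 and its size factors, no filter or a minimum of 10 counts per culture, a fit of the 8 cultures of a comparison alone, each culture left out, an offset of 0.1 and 3 letter sets.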

Additional observations from a re-analysis of the deposited data

Results flagged for a closer look

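Of 93 groups of 4 cultures (31 genes at 3 doses), 6 held a culture whose gap to the nearest of the others passed Dixon's 95% limit for the share of the range of the group, and chance gives about 1 in 20. Squalene epoxidase Sqle was at 199 CPM in untreated culture G and at 109 to 124 CPM in the other untreated cultures. In high dose culture C, Fdps was at 76.9 CPM against 104 to 106 CPM and Acly at 289.6 CPM against 218 to 229.9 CPM. In high dose culture R, Lss was at 49.2 CPM against 35.3 to 37.3 CPM and Srebf1 at 124 CPM against 49.2 to 56.7 CPM. Ebp was at 7.15 CPM in low dose culture B against 10.2 to 10.6 CPM. For Fdps and Ebp, A, B and C held the 3 lowest values of the 12 cultures, and for Acly the 3 highest. For Lss and Srebf1, P, Q and R held the 3 highest when G is set aside.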

How the results depend on the processing

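The median log2 fold change of the 31 genes stayed below 0 in 22 of 22 alternatives in low dose vs. untreated (-0.205 to -0.0431), 22 of 22 in high dose vs. untreated (-0.263 to -0.103) and 21 of 22 in high dose vs. low dose (-0.150 to 0.0154, the highest without low dose culture Q). None of the 31 was called in any alternative. Over all genes, between high dose and untreated cultures and between the doses, 2 RUVs factors called 1 and 1, the block by letter sets without G 15 and 14, and DESeq2 3 and 1, and the likelihood ratio test called 2 in the first. Members with an unadjusted p under 0.05 numbered 2, 7 and 1 of 31 with the block, where 2.47%, 3.05% and 2.96% of all genes had one, and 2, 8 and 5 with the block without G, where 7.54%, 9.43% and 13.6% did (low against untreated, high against untreated, high against low). The 2 and the 5 of the latter are shares near those of all genes. Members below that p numbered 0 in high dose vs. untreated with the likelihood ratio test, where 1.03% of all genes had one. In high dose vs. low dose they numbered 1 with 2 RUVs factors or only the 8 cultures compared, where 4.05% and 2.61% of all genes did. These counts are near the shares of all genes. With 1 culture left out they numbered 0 to 2, 0 to 3 and 0 to 1, and the shares of all genes in those fits are not given here. Without the set GHI, 2 genes were higher at the low dose than untreated in all 3 sets, where 13.9% of all genes were, and 14 were lower at high than at low dose, where 15.6% were. The causes were not tested.

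Of 924 values of single genes under the alternatives, 38 had the opposite sign, none of a called value. In low dose vs. untreated, Stard4 was at -0.00889 with 2 RUVs factors and -0.0341 with the block without G, which also gave 0.0613 for Srebf1, 0.0140 for Fads1 and, in high dose vs. untreated, 0.0222 for Srebf2. With 1 culture left out, the log2 fold change in low dose vs. untreated ranged from -0.332 to 0.0183 for Hmgcs1, -0.351 to 0.0463 for Idi1, -0.354 to 0.0332 for Cyp51, -0.826 to 0.220 for Srebf1 and -0.206 to 0.396 for Stard4. In high dose vs. untreated it ranged from -0.330 to 0.0233 for Idi1, -0.932 to 0.145 for Srebf1, -0.0731 to 0.0363 for Srebf2 and -0.408 to 0.183 for Stard4. In high dose vs. low dose it ranged from -0.173 to 0.154 for Hmgcs1, -0.134 to 0.151 for Idi1, -0.144 to 0.0154 for Sqle, -0.236 to 0.0687 for Cyp51, -0.581 to 0.416 for Srebf1, -0.462 to 0.0153 for Stard4, -0.0377 to 0.125 for Fasn, -0.585 to 0.0177 for Fads1 and -0.657 to 0.0884 for Fads2. A left-out culture unbalances its letter set. The letter sets are not a stated pairing, so the block was an alternative to the reported model. Each gene had at least 58 counts in every culture, so the spread between cultures (common dispersion 0.106) limits these values more than depth does.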
